A study of Sus scrofa with 40 samples.

Results

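The effect of 24 h of cold storage on top of 60 min of warm ischemia was examined in porcine kidney cortex by setting the 5 cortex arrays of the WI+CS24h group against the 5 of the WI group, 10 of the 40 arrays of the series, chosen by their titles. All kidneys came from Large White pigs aged 3 months. In both groups the renal pedicle was clamped and the kidney was removed and held clamped for 60 min at 37 °C. Kidneys of the WI group (WI-C for cortex) were then sampled and frozen at once. Kidneys of the cold storage groups were flushed with cold University of Wisconsin preservation solution and kept at 4 °C, and from each of these 5 kidneys a sample was taken at 6 h (WI+CS6h-C) and another at 24 h (WI+CS24h-C). The series also holds control kidneys frozen right after removal (Ctl-C) and the corticomedullary junction (CMJ) of every group, and it comes from 15 kidneys in all. The WI kidneys and the cold-stored kidneys are different kidneys, so cold flush, cold storage and a difference between the 2 sets of pigs cannot be told apart. No kidney was reperfused after storage, and each sample is a tissue piece with all its cell types.

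The cortex is made up mostly of proximal tubule, whose cells reabsorb solutes with ATP that comes largely from the oxidation of fatty acids in mitochondria. CPT2 frees long-chain acyl groups from carnitine at the inner mitochondrial membrane, HADHA is the alpha subunit of the trifunctional protein that carries out the later steps of their beta-oxidation, and PDK4 is the kinase that switches off pyruvate dehydrogenase when fatty acids are the fuel. FUT2 is a fucosyltransferase that builds the H antigen on epithelial surfaces and in secretions. Cold slows metabolism in a stored organ but does not stop it, and transcripts can both be made and be lost during storage.

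Probes behind FUT2 and HADHA are given below because the results for these genes turn on what each probe measured. Each is a 60-base oligonucleotide as listed in the array files, numbered within a gene from the brightest in WI-C, and each sequence printed has at least 1 reading frame without a stop codon. The array files give no genome position that was used here.
FUT2 probe 1: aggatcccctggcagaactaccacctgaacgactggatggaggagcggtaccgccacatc
HADHA probe 1: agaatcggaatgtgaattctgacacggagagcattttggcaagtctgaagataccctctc
HADHA probe 2: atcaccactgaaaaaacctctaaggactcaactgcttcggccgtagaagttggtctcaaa
HADHA probe 3: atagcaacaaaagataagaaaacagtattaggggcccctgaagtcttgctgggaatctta

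Levels are the log2 of the background-subtracted signal after quantile normalization over all 40 arrays, averaged over the probes of a gene identifier, and differences are WI+CS24h-C minus WI-C. A gene was called when limma's Benjamini-Hochberg adjusted p was under 0.05 and the absolute log2 difference was at least 0.5, in a fit of the 20 cortex arrays with 4 groups. The share of spots well above background was 62.8% to 67.0% on the WI-C arrays and 63.4% to 67.5% on those of WI+CS24h-C, a difference of 1.35 percentage points (exact permutation test, two-sided p = 0.206 over 252 splits, where 0.00794 is the smallest p the design allows). Arrays of one group correlated with each other at a mean r of 0.986 and 0.983 across identifiers, respectively. Of the markers of the labelled tissue, the 10 measured proximal tubule genes averaged 13.46 ± 0.10 in WI-C (SD, n = 5) and 13.31 ± 0.26 after storage (SD, n = 5), with replicate 5 of the stored group at 12.87 and the other stored arrays at 13.33 to 13.50. Of these genes 8 were below 0 after storage and none was called. The podocyte genes WT1 and PODXL were well above background on all 10 arrays. For AQP1, a water channel of proximal tubule cells, the brighter identifier was saturated on all 10 arrays, and a second one, saturated on none and well above background on all 10, differed by 0.10 without a call.

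After 24 h of cold storage 433 of 35939 identifiers were called, 1.2%. Of these 229 were higher (0.637% of those tested) and 204 were lower (0.568%), and the arrays of the 2 groups did not overlap for 375 of the 433. Across all identifiers the arrays of the groups did not overlap for 3.38%. The median absolute change of the called identifiers was 0.88 on the log2 scale, and 183 changed by at least 1, of which 80 rose and 103 fell. A gene symbol was found for 174 of the called identifiers, 165 distinct symbols, and for 8937 of the 35955 identifiers on the array. One identifier without a symbol was not well above background on any WI-C array and was at least 50.2-fold higher after storage.

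**Figure D1:**
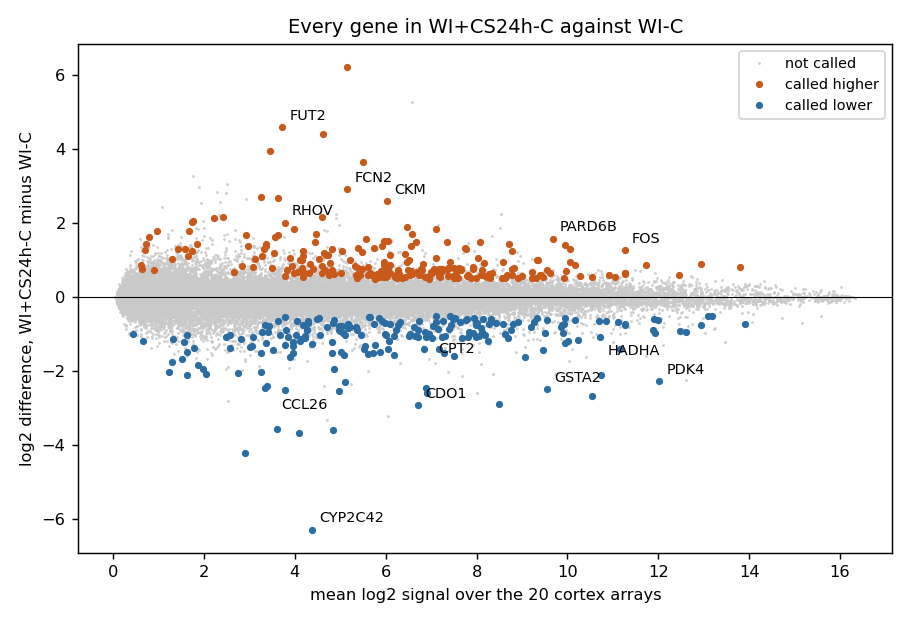
Each point is 1 gene identifier, with its mean log2 signal over the 20 cortex arrays on the horizontal axis and the log2 difference WI+CS24h-C minus WI-C on the vertical axis. The 433 called identifiers are coloured, 229 higher in orange and 204 lower in blue, and FUT2 (4.61) and CYP2C42 (-6.29) lie farthest from 0 among the genes labelled.

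By the difference in the main fit FUT2 had the largest rise of the called genes with a symbol whose groups did not overlap. Its log2 signal was 1.391, 1.424, 1.518, 1.599 and 1.148 on the WI-C arrays and 5.56, 5.48, 6.42, 6.75 and 5.90 on the WI+CS24h-C arrays. Every stored cortex lay far above every cortex sampled right after warm ischemia, with a log2 difference of 4.61 (SE 0.28, limma adjusted p = 6.9e-08). The mean was 1.39 in Ctl-C against 1.42 in WI-C, and it was 6.08 after 6 h of storage against 6.02 after 24 h.

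The size of the FUT2 rise differed between its 3 probes. Probe 1, printed above, was well above background on all 10 arrays and went from 3.67 ± 0.38 to 5.80 ± 0.47 (SD, n = 5), a log2 difference of 2.12 (SE 0.27, limma adjusted p = 0.00056). Probes 2 and 3 were not well above background on any WI-C array and were so on all 5 WI+CS24h-C arrays, at 5.85 and 6.43, which makes them at least 10.6-fold and at least 15.8-fold higher. These bounds set the mean signal after storage against, on each WI-C array, the higher of the probe's own signal and the lowest signal among probes well above background. The averaged log2 difference of FUT2 therefore holds 2 probes whose starting level is only a bound. With normexp background correction, which compresses low signals, the averaged difference was 0.60, and it was 1.72 in the authors' deposited matrix, called in both. FUT2 did not have the largest rise in either, with PARD6B at 1.33 under normexp correction and CKM at 1.81 in the deposited matrix.

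HADHA and CPT2, both of mitochondrial fatty acid oxidation, fell by about the same amount. HADHA was at 11.13, 11.52, 11.30, 11.08 and 11.49 in WI-C and at 10.06, 9.92, 10.71, 10.82 and 9.65 in WI+CS24h-C. The groups did not overlap, with the lowest WI-C array at 11.08 and the highest stored one at 10.82, and the log2 difference was -1.07 (SE 0.23, limma adjusted p = 0.0257). CPT2 was at 8.42, 8.97, 8.95, 8.77 and 8.82 in WI-C and at 7.59, 7.54, 8.08, 8.34 and 7.25 in WI+CS24h-C, again without overlap, a log2 difference of -1.03 (SE 0.20, limma adjusted p = 0.0144). In linear terms HADHA was 2.10-fold and CPT2 2.04-fold lower after storage. Because whole tissue was measured, fewer cells of a type and less RNA per cell cannot be told apart.

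Of the 3 HADHA probes, probe 1 fell from 13.002 to 11.598 (-1.40, limma adjusted p = 0.0039) and probe 2 from 11.53 to 10.12 (-1.41, limma adjusted p = 0.0028). Probe 3, the dimmest, went from 9.38 to 8.98, a difference of -0.41 that did not pass the test (limma adjusted p = 0.571). The call of HADHA, averaged over these probes, was lost in 6 of the 10 fits that left out 1 array, those without WI-C replicates 2, 3 or 5 or without WI+CS24h-C replicates 1, 2 or 5, with differences between -1.22 and -0.93 over all 10 fits. The call of CPT2 was kept in all 10. Both genes lost their call when the 10 arrays of the comparison were fitted without the other cortex groups.

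**Figure D2:**
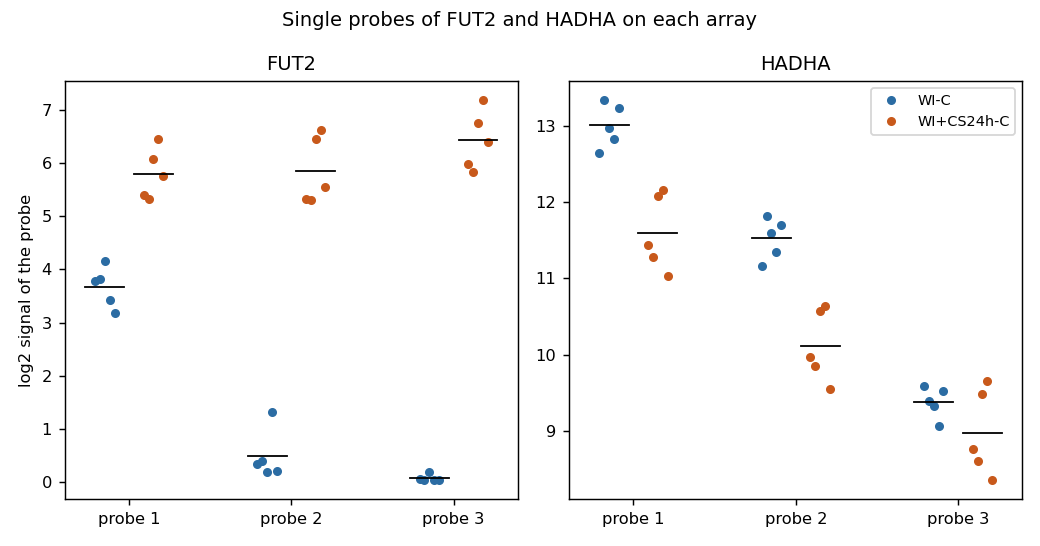
Log2 signal of each FUT2 probe (left) and each HADHA probe (right) on the 5 WI-C arrays (blue) and the 5 WI+CS24h-C arrays (orange), with black bars at the group means. FUT2 probes 2 and 3 start near 0 and end at 5.85 and 6.43, while probe 1 starts at 3.67, and HADHA probe 3 differs by -0.41 against -1.40 and -1.41 for the other probes.

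Arrays of the 2 groups were spread over slides, and 4 slides held 1 array of each. Within these slides the stored cortex differed from the WI cortex for FUT2 by 5.36, 4.04, 4.47 and 5.27, for HADHA by -0.32, -1.25, -1.87 and -0.77, and for CPT2 by -0.09, -1.36, -1.72 and -0.74. The direction was the same on every slide for all 3 genes, and the sizes for HADHA and CPT2 ranged widely. Within the 2 scan days FUT2 differed by 4.43 and 4.87, HADHA by -0.91 and -1.32 and CPT2 by -0.89 and -1.23. With slide as a fixed block, 118 identifiers were called in place of 433; FUT2 was still called (4.75, limma adjusted p = 0.00044), and HADHA (-0.996, limma adjusted p = 0.185), CPT2 (-0.96, limma adjusted p = 0.171) and PDK4 (-2.12, limma adjusted p = 0.0761) were not. Of the 50 called genes under the naming rule, 18 kept their call with that block: FUT2, CKM, WDR64, XRCC2, RHOV, PARD6B, CCSER1, LYPD6, BCL6, CEBPA, ABCC2, LEO1, CYP2C42, CDO1, CCL26, EDN1, CYP39A1 and MAP3K21. The other 32 lost it.

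Normexp correction ended the call of 22 of the 50 genes, which were FCN2, WDR64, XRCC2, RHOV, CCSER1, REC114, NNAT, CRSP3, KLHL33, EDN1, EGR1, CHORDC1, HSPH1, NDRG1, CYP27A1, TRIM21, AQP3, MAP2K6, DYRK2, MAP3K21, EXPH5 and LEO1. The deposited matrix ended that of 11, which were WDR64, XRCC2, RHOV, REC114, CRSP3, KLHL33, EDN1, HSD17B4, HSPH1, TRIM21 and SLC22A2. Scaling by the 75th percentile in place of quantile normalization ended that of 7, which were REC114, HSD17B4, CHORDC1, CYP3A46, CEBPD, AQP3 and ABCC2. When the 10 arrays were fitted alone 25 lost their call, which were HADHA, CPT2, XRCC2, REC114, CYP2C42, NNAT, CRSP3, CALHM2, CXCL10, HSD17B4, NR4A2, CHORDC1, NDRG1, GSTA2, CYP3A46, CYP27A1, ZFAND5, TRIM21, CEBPD, AQP3, ID1, ID2, MAP2K6, EXPH5 and LEO1.

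PDK4 had the largest fall of the fatty acid genes. Its signal was 13.23, 13.33, 13.06, 13.005 and 13.05 in WI-C and 10.51, 10.49, 11.59, 11.90 and 9.84 in WI+CS24h-C. The WI arrays lay within a narrow band and the stored ones were spread well below it, with a log2 difference of -2.27 (SE 0.37, limma adjusted p = 0.0036), or 4.83-fold. Each of its 9 probes was lower, by -2.51 to -1.99. HSD17B4, a peroxisomal beta-oxidation enzyme, fell by 0.76 on the log2 scale (limma adjusted p = 0.0392), a call kept only in the fits without replicate 3 or 4 of WI+CS24h-C among the 10 that left out 1 array (-0.88 to -0.66). Replicates 3 and 4 of WI+CS24h-C had the highest signal of the stored cortices for PDK4, HADHA, CPT2 and HSD17B4 alike.

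Of the 33 measured genes of fatty acid oxidation and its regulation, these 4 fell, none rose and 29 did not pass the test, where 0.568% of all identifiers were called lower and 2.10% of the 7445 symbols were called in either direction. With slide as a block none of the list was called. The median of the list was -0.23, against -0.006 over all identifiers, and 22 of its members were below 0, where 18532 of all 35939 identifiers were. The uncalled members included ACSL1 (-0.97), which activates long-chain fatty acids, ACAA1 (-0.87) and HADHB (-0.55), the partner subunit of HADHA. Others of the same pathway were close to 0, such as ACADM (0.02) and ETFB (-0.04), and the coactivator PPARGC1A was at 0.32. Without replicate 5 of WI+CS24h-C the median of the list was -0.11 with 2 members called, and 2 to 7 were called over the 10 fits that left out 1 array, 7 without replicate 4 of WI+CS24h-C and 2 also without replicates 1 or 2 of that group or replicates 2, 3 or 5 of WI-C. That stored replicate 5 also had the lowest mean level of the proximal tubule markers, 12.87, whose part in these falls and in those of the cytochrome P450 enzymes was not tested. The 33 nuclear genes of the respiratory chain had a median of 0.18 and no call, with ATP5MC3, saturated on 1 array, at 0.23 and COX6A1, saturated on 2 arrays, at 0.10, and the median was 0.025 without replicate 5 of WI+CS24h-C. The 24 genes of gluconeogenesis and amino acid metabolism had a median of -0.17 and no call, and PCK1, the first committed enzyme of gluconeogenesis, was saturated on 9 of the 10 arrays.

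**Figure D3:**
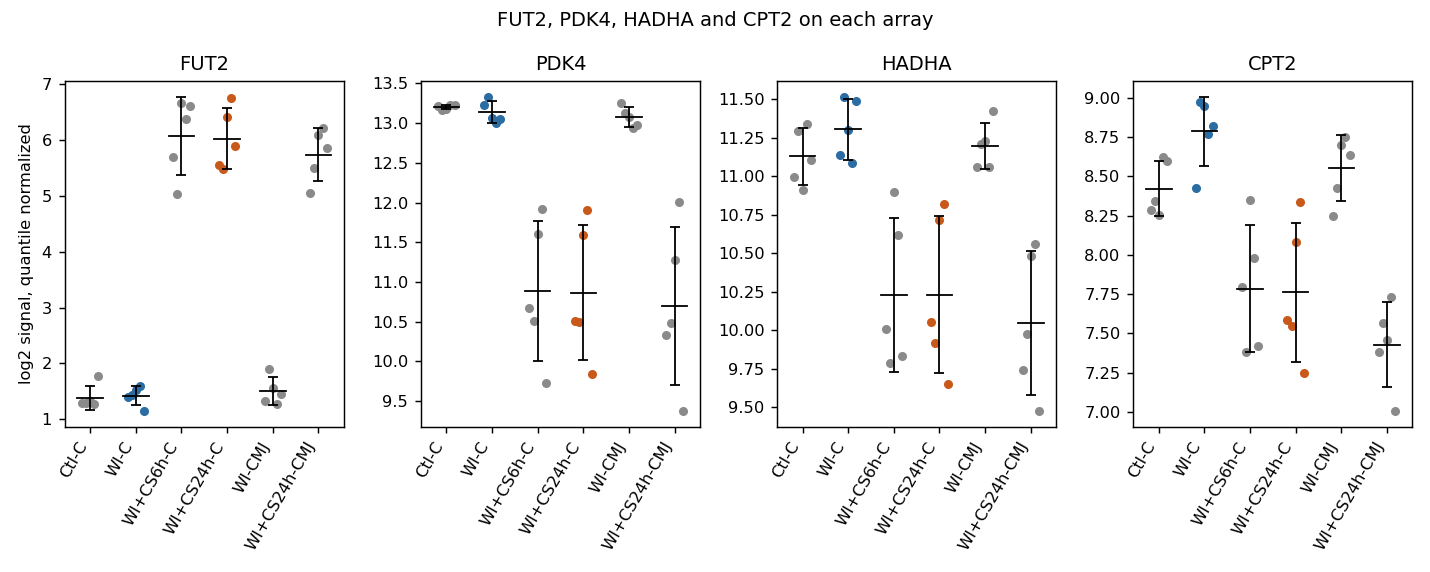
Log2 signal of FUT2, PDK4, HADHA and CPT2 on each array of Ctl-C, WI-C, WI+CS6h-C, WI+CS24h-C, WI-CMJ and WI+CS24h-CMJ, with 5 arrays a group and bars for the mean and SD. FUT2 moves from 1.42 in WI-C to 6.02 in WI+CS24h-C, while PDK4, HADHA and CPT2 fall, and the 6 h and 24 h groups sit at like levels.

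The cytochrome P450 enzymes, which oxidize drugs, sterols and fatty acids, had 6 of 23 measured members lower and none higher, with a median of -0.37 and 18 members below 0, where 1.2% of all identifiers and 2.10% of the 7445 symbols were called in either direction. With slide as a block 3 members were called, where 118 of 35939 identifiers and 44 of 7445 symbols were. The median was -0.17 with normexp correction, with 5 called, and -0.21 with the brightest probe of each identifier, with 3 called. Without replicate 5 of WI+CS24h-C the median was -0.18, and 3 members were called in the fits without replicates 1, 2 or 5 of WI+CS24h-C or replicates 2 or 3 of WI-C and 4 in those without WI+CS24h-C replicate 3 or WI-C replicates 4 or 5. CYP2C42, of the drug-metabolizing CYP2C family, was at 7.80, 9.27, 8.22, 2.30 and 8.99 in WI-C and at 0.91, 0.97, 1.49, 1.33 and 0.43 in WI+CS24h-C. It was well above background on 4 WI-C arrays and on no stored one, and the fall was at least 33.2-fold (log2 difference -6.29, SE 0.94, limma adjusted p = 0.0021). The difference of CYP2C42 was -1.52 with normexp correction and -3.08 in the deposited matrix, called in both but smaller than that bound, and -7.54 to -5.80 over the 10 fits that left out 1 array. Replicate 4 of WI-C was not well above background and lay close to the stored cortices. The groups did not overlap, but between that array and the stored ones this is an order among signals that were not well above background.

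CYP39A1, which acts on oxysterols, ranged from 8.47 to 8.67 in WI-C and from 7.21 to 7.81 in WI+CS24h-C, a log2 difference of -1.04 (SE 0.14, limma adjusted p = 0.00087). A second identifier of CYP39A1 differed by 0.13 and was not called. CYP27A1, the sterol 27-hydroxylase, fell by 1.04 on the log2 scale (limma adjusted p = 0.0344) and CYP3A46 by 1.62 (limma adjusted p = 0.0406), the latter with overlapping arrays. The call of CYP27A1 was kept only without replicate 1 of WI-C or replicates 3 or 4 of WI+CS24h-C (-1.21 to -0.86 over the 10 fits), and that of CYP3A46 only without replicate 4 of either group (-1.85 to -1.28). The other 2 called members, chosen after their values were seen, were CYP4A21, at least 1.87-fold lower, and CYP4A24, at least 1.42-fold lower, both saturated on all 5 WI-C arrays. NR1H4, the bile acid receptor, fell by 1.07 on the log2 scale (SE 0.21, limma adjusted p = 0.0129).

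Among the 32 redox genes and NRF2 targets 2 fell and none rose, with a median of -0.06, where 0.568% of all identifiers were called lower and 2.10% of symbols were called. CDO1, which oxidizes cysteine, was at 8.21, 8.68, 7.64, 7.98 and 8.48 in WI-C and at 5.96, 5.30, 4.26, 4.89 and 5.94 in WI+CS24h-C, well apart (log2 difference -2.93, SE 0.37, limma adjusted p = 0.00054). GSTA2, a glutathione transferase, was at 11.32, 8.71, 10.92, 11.32 and 11.40 in WI-C and at 8.93, 9.10, 7.31, 7.92 and 7.93 in WI+CS24h-C, where replicate 2 of WI-C lay among the stored cortices (log2 difference -2.50, SE 0.48, limma adjusted p = 0.0119). The difference of CDO1 was -1.35 with normexp correction. HMOX1, the inducible heme oxygenase, was at 0.63 without passing the test (limma adjusted p = 0.09).

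Immediate early genes, which cells transcribe within minutes of a stimulus without new protein, had 5 of 26 measured members higher and none lower. Their median was 0.37 and 23 of them were above 0, where 4172 of the 7445 symbols tested were. Of all identifiers 0.637% were called higher. With slide as a block the median was 0.41 and none was called, and with normexp correction it was 0.17 and 3 were called. FOS, a subunit of the AP-1 transcription factor, was at 10.97, 10.85, 11.06, 10.92 and 10.79 in WI-C and at 12.19, 12.16, 11.77, 12.10 and 12.77 in WI+CS24h-C. The groups did not overlap (log2 difference 1.28, SE 0.22, limma adjusted p = 0.0052), and the Ctl-C mean was 9.65, which is 1.27 below that of WI-C. NR4A2, a nuclear receptor, rose by 1.84 (SE 0.35, limma adjusted p = 0.0113), with values of 6.11 to 7.10 in WI-C and 7.0 to 8.73 in WI+CS24h-C that overlapped through replicate 5 of the stored group. A second identifier of NR4A2, well above background on 1 WI-C array and 4 stored ones, differed by 0.60 and was not called (limma adjusted p = 0.549), and one of FOS rose by 1.05 (limma adjusted p = 0.023). BTG2, an antiproliferative gene, rose by 1.31 (limma adjusted p = 0.0204) and EGR1, a zinc finger transcription factor, by 1.14 (limma adjusted p = 0.0194). KLF4, named after its values were seen, rose by 0.78. BTG2 lost its call without WI-C replicates 2 or 3 or WI+CS24h-C replicates 1 or 3 (1.201 to 1.497 over the 10 fits), and EGR1 without WI+CS24h-C replicate 2 (1.04 to 1.26). With normexp correction EGR1 differed by 0.24 and was not called. JUN (0.45), MYC (0.14) and SGK1 (0.08) did not pass the test.

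BCL6, a transcriptional repressor, was at 7.94, 7.98, 7.94, 7.92 and 7.94 in WI-C and at 9.60, 9.36, 9.59, 9.60 and 8.70 in WI+CS24h-C (log2 difference 1.43, SE 0.22, limma adjusted p = 0.0025). The 5 WI arrays were almost equal and all stored cortices lay above them. CEBPA rose by 0.88 (limma adjusted p = 0.00125), while its relative CEBPD fell by 0.68 on the log2 scale (limma adjusted p = 0.0104). Of 2 further identifiers of CEBPA one rose by 0.55 (limma adjusted p = 0.0457) and one differed by 0.39 and was not called (limma adjusted p = 0.407). PARD6B, a component of the epithelial polarity complex, was at 9.14, 8.71, 8.72, 8.85 and 8.77 in WI-C and at 11.07, 10.75, 10.41, 10.16 and 9.73 in WI+CS24h-C, 3.00-fold higher (limma adjusted p = 0.00103). A second identifier of PARD6B, well above background on all 10 arrays, differed by 0.38 and was not called (limma adjusted p = 0.223). RHOV, a small GTPase, was at 2.58, 2.58, 3.00, 2.76 and 2.41 in WI-C and at 4.99, 4.58, 4.76, 4.91 and 4.18 in WI+CS24h-C (log2 difference 2.02, SE 0.21, limma adjusted p = 8.2e-05). RHOV was dim in both groups, and its difference was 0.33 with normexp correction and 0.49 in the deposited matrix, under the minimum in both.

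FCN2, a lectin that can start complement, was at 4.28, 3.32, 2.88, 4.29 and 3.05 in WI-C and at 6.26, 5.85, 6.07, 6.95 and 7.30 in WI+CS24h-C (log2 difference 2.92, SE 0.47, limma adjusted p = 0.0031). Its brighter probe differed by 1.99, and its dimmer one, well above background on 2 of the WI-C arrays, by 3.85. With normexp correction the difference of FCN2 was 0.55 and was not called (limma adjusted p = 0.161). CKM, the muscle form of creatine kinase, was at 4.67, 4.88, 4.50, 4.75 and 4.72 in WI-C and at 7.63, 7.96, 6.10, 6.82 and 8.02 in WI+CS24h-C (log2 difference 2.60, SE 0.39, limma adjusted p = 0.00195), and a second identifier of CKM rose by 1.38 (limma adjusted p = 0.0142). The difference of CKM was 0.87 with normexp correction and 1.81 in the deposited matrix, called in both. Of the 4 measured striated muscle markers CKM alone was called; ACTA1 was at 0.29, and TNNT3 and MYL1 at -0.06 with mean levels of 1.71 and 0.54 in WI-C.

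The other named rises were LYPD6 (1.49, limma adjusted p = 0.00078), CCSER1 (1.57), REC114 (1.495), WDR64 (2.16) and XRCC2 (2.02). WDR64 and XRCC2 were not well above background on any WI-C array and were at least 2.17-fold and at least 1.32-fold higher, so the fitted differences that place them among the named rises are not measured sizes. The call of REC114 (limma adjusted p = 0.044) was kept only without WI-C replicate 3 or WI+CS24h-C replicates 4 or 5 (1.29 to 1.69 over the 10 fits that left out 1 array).

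Among inflammatory genes 3 of 41 measured members fell and none rose, with a median of -0.07, where 0.568% of all identifiers were called lower and 2.10% of symbols were called. CCL26, a chemokine that draws eosinophils, was at 6.27, 6.27, 5.88, 5.92 and 6.50 in WI-C and at 3.83, 3.71, 2.96, 3.46 and 4.24 in WI+CS24h-C, with no overlap (log2 difference -2.53, SE 0.23, limma adjusted p = 2.9e-05). With normexp correction the difference was -0.53 and in the deposited matrix -1.37, called in both. CXCL10, an interferon-induced chemokine that draws T cells, was at 10.46, 10.38, 9.66, 10.45 and 10.41 in WI-C and at 9.46, 9.39, 8.46, 9.09 and 7.81 in WI+CS24h-C (log2 difference -1.43, SE 0.34, limma adjusted p = 0.0399). The call of CXCL10 was kept only without WI-C replicate 3 or WI+CS24h-C replicates 1 or 2 (-1.58 to -1.17). ZFAND5, an inhibitor of NF-kB signalling, fell by 0.80 on the log2 scale over 15 probes (limma adjusted p = 0.0042). TNF (0.05), CXCL8 (0.0016) and ICAM1 (0.01) were near 0.

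All 23 measured interferon-stimulated genes were below 0, where 18532 of all 35939 identifiers were, and their median was -0.61. Only TRIM21 was called (-0.61, limma adjusted p = 0.0313), 1 of 23 against 0.568% of all identifiers called lower and 2.10% of symbols called in either direction. It kept its call only without replicate 5 of either group (-0.72 to -0.55). A second identifier of TRIM21 differed by -1.03 and was not called. The uncalled members reached from RSAD2 (-1.25) and MX2 (-1.12, limma adjusted p = 0.0502) to IFIH1 (-0.07). The median was -0.22 with normexp correction and -0.32 in the deposited matrix, with none called in either, and without WI-C replicate 5 it was -0.76 with 5 called.

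**Figure D4:**
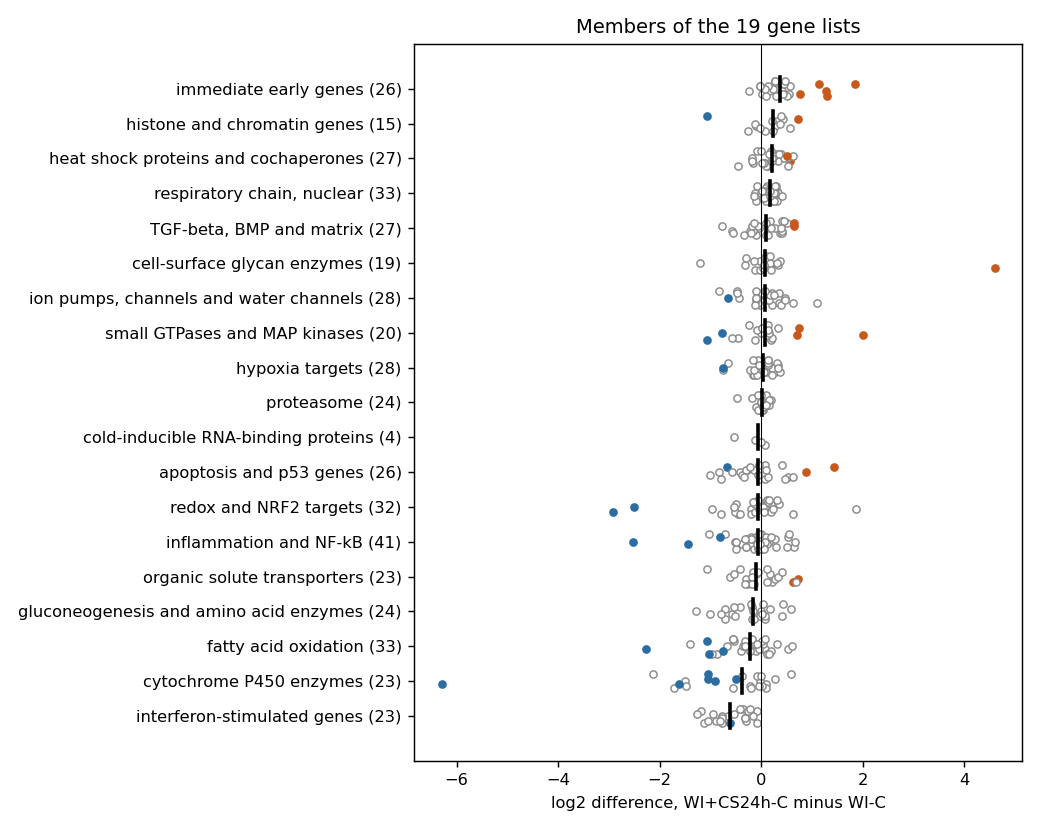
Log2 difference WI+CS24h-C minus WI-C of each measured member of the 19 gene lists, ordered by list median (black bar), with filled points for called genes (orange higher, blue lower) and open points for the rest, and the number measured in brackets. Interferon-stimulated genes have the lowest median (-0.61) with all points below 0, and immediate early genes the highest (0.37).

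Of 27 heat shock proteins and cochaperones 2 were higher, HSPH1 (0.52, limma adjusted p = 0.0056) and CHORDC1 (0.57, limma adjusted p = 0.0327), and the median was 0.21. Over all features 0.637% of identifiers were called higher, 0.568% were called lower and 2.10% of symbols were called. HSPA8, the constitutive HSP70, differed by 0.36 (limma adjusted p = 0.012), under the minimum change. The call of CHORDC1 was kept only without WI-C replicate 1 or WI+CS24h-C replicate 3 (0.51 to 0.64), and that of HSPH1 was lost without WI+CS24h-C replicates 3 or 4 (0.48 to 0.57). Of 8 genes listed as cold-inducible RNA-binding proteins 4 were measured and none was called (median -0.05, from -0.53 to 0.08). The 2 brightest of them, RBMX and RBM5, were at 0.004 and 0.08. The list thus covers these proteins only in part. Of 28 hypoxia targets NDRG1 alone was called (3.57%, near the share of symbols), 0.75 lower on the log2 scale (limma adjusted p = 0.0298), and the list median was 0.04, with VEGFA at 0.13, and GAPDH was saturated on 9 of the 10 arrays. NDRG1 kept its call only without WI-C replicate 1 or WI+CS24h-C replicates 3 or 4 (-0.84 to -0.60). The 24 proteasome genes had no call and a median of 0.02.

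Among transporters, SLC22A2, the organic cation transporter of the basolateral membrane, ranged from 9.47 to 9.83 in WI-C and from 10.20 to 10.48 in WI+CS24h-C, a rise of 0.72 (SE 0.12, limma adjusted p = 0.0032), and of 0.28 in the deposited matrix, not called (limma adjusted p = 0.202). ABCC2, an apical efflux pump, ranged from 10.63 to 11.08 and from 11.42 to 11.73, a rise of 0.63 (SE 0.10, limma adjusted p = 0.0038). A second identifier of ABCC2, with 3 probes well above background on all 10 arrays, differed by 0.28 and was not called (limma adjusted p = 0.383). They were the only 2 called of 23 organic solute transporters (8.70%, against 1.2% of identifiers and 2.10% of symbols), whose median was -0.11, and the albumin receptors CUBN (-0.61) and LRP2 (-0.11) did not pass the test. Among 28 ion pumps and channels only AQP3, a water and glycerol channel of the collecting duct, was called, a share of 3.57% that is near that of symbols (-0.65, limma adjusted p = 0.0392, median of the list 0.07), and it kept its call only without WI-C replicate 1 or WI+CS24h-C replicate 4 (-0.75 to -0.60).

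In the remaining lists the counts of called members stand against 1.2% of all identifiers and 2.10% of symbols called. The paper names BCL6, CEBPA, FUT2, DYRK2, MAP3K21, EXPH5, LEO1 and NR1H4 as regulated in these arrays. The shares of their lists are therefore not independent of these data. Of 26 genes of apoptosis and the p53 response BCL6 and CEBPA were higher and CEBPD was lower, with a median of -0.06, while CDKN1A (-0.37), BAX (0.53) and GADD45A (-1.0) did not pass the test. Of 19 cell-surface glycan enzymes FUT2 alone was called, with a median of 0.08, and its relative FUT1, which builds the H antigen on other cells, was at 0.09. Of 27 genes of the TGF-beta and BMP pathways and matrix, the inhibitors of differentiation ID1 (0.65) and ID2 (0.65) were higher, and the median was 0.11. ID1 kept its call only without replicate 5 of either group (0.58 to 0.76), and ID2 only without WI-C replicates 1, 4 or 5 or WI+CS24h-C replicate 5 (0.60 to 0.79). Of 20 genes in a list of small GTPases, MAP kinases and related genes 5 were called (25.0%). RHOV, MAP2K6 (0.76) and DYRK2 (0.71) were higher, MAP3K21 (-1.06) and EXPH5 (-0.76) were lower, and the list median was 0.07. With normexp correction MAP3K21 was at -0.37 and EXPH5 at -0.30, not called, and in the deposited matrix they were at -0.71 and -0.60, called. Second identifiers of MAP3K21 and MAP2K6 differed by 0.14 and 0.80, neither called, and EXPH5 kept its call only without WI+CS24h-C replicate 4 (-0.87 to -0.64). Of 15 genes in a list of histone, chromatin and transcription genes 2 were called (13.3%), neither of them a histone. LEO1 was higher (0.72, lost without WI-C replicates 4 or 5, 0.66 to 0.80), the nuclear receptor NR1H4 was lower, and the list median was 0.23.

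The other named falls were EDN1, the vasoconstrictor endothelin (-1.34, limma adjusted p = 0.0079), NNAT (-1.95, limma adjusted p = 0.0107), CALHM2 (-1.499), CRSP3 (-1.76) and KLHL33 (-1.48). EDN1 was dim, at 3.74 in WI-C and 2.41 in WI+CS24h-C, and its difference was -0.09 with normexp correction and -0.30 in the deposited matrix, not called in either. CRSP3 was well above background on 2 WI-C arrays and on no stored one, its difference was -0.05 with normexp correction and -0.22 in the deposited matrix, not called in either, and a second identifier that was not well above background anywhere differed by 0.48. NNAT differed by -0.38 with normexp correction, and KLHL33 was not well above background on any array of either group, so the size of its difference is not a measured one. The call of CALHM2 was lost without WI-C replicates 3 or 5 or WI+CS24h-C replicates 3 or 4 (-1.75 to -1.33), and that of KLHL33 was kept only without WI-C replicates 1 or 3 or WI+CS24h-C replicates 1 or 2 (-1.58 to -1.37).

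**Figure D5:**
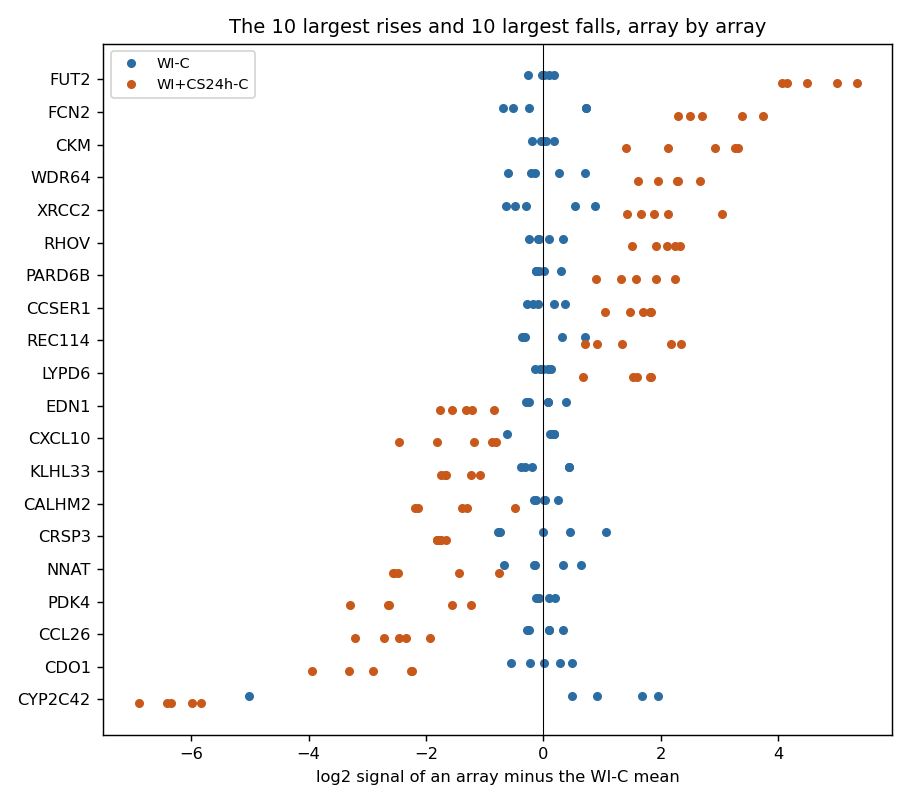
Log2 signal of each WI-C array (blue) and WI+CS24h-C array (orange) minus the WI-C mean, for the 10 largest rises and 10 largest falls by fitted difference among called genes with a symbol whose groups did not overlap. WDR64, XRCC2, CYP2C42, CRSP3 and KLHL33 were not well above background on any array of at least 1 group, so their place in this order is not measured. FUT2 has the highest fitted rise at 4.61 and CYP2C42 the lowest fitted difference at -6.29, with 1 WI-C array of CYP2C42 at 2.30 near the stored cortices.

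Markers of the cell types in the samples showed 2 calls, AQP3 of the collecting duct (1 of 4) and CKM of striated muscle (1 of 4), where 1.2% of identifiers and 2.10% of symbols were called. There was none among the 3 markers of thick ascending limb and distal tubule, 2 of podocytes, 5 of endothelium, 4 of fibroblasts, 5 of fat cells, 4 of leukocytes and 1 of erythrocytes. The mean level of the 3 thick ascending limb and distal tubule markers ran from 9.19 to 9.58 in WI-C and from 9.63 to 10.55 in WI+CS24h-C, with PVALB at 1.46 (limma adjusted p = 0.0711). That of the leukocyte markers ran from 2.34 to 3.36 and from 2.38 to 4.61, with the neutrophil genes S100A8 at 1.14 and S100A9 at 1.52, neither called. The erythrocyte gene HBB differed by -1.27, with values of 3.56 to 4.61 in WI-C and 0.12 to 5.82 in WI+CS24h-C. The part of these shifts in the changes of other genes was not tested.

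The cortex after 24 h was next set against the cortex of the same 5 kidneys after 6 h, to see whether levels moved on with longer storage. The fit had a term per group and none for the kidney, since the labels do not say which arrays share a kidney. Deviations from the group means of same-numbered 6 h and 24 h arrays correlated with r from -0.31 to 0.36, over 0.1 in 3 of 5. No identifier of 35939 was called (0%), 1119 had an unadjusted p under 0.05 and the lowest adjusted p was 0.629 by limma. For the 433 identifiers called at 24 h the median absolute difference between 24 h and 6 h was 0.063, against 0.1004 over all identifiers, and 417 of them differed by less than 0.5. These medians are not a test, because the 433 were called with a spread estimated partly from the 6 h and 24 h arrays. A low spread by itself favours a small difference between the 2 times. Relative to WI-C, which both comparisons share, FUT2 was at 4.66 after 6 h and 4.61 after 24 h, PDK4 was at -2.25 and -2.27, HADHA at -1.07 and -1.07, CPT2 at -1.002 and -1.03, and FOS at 1.34 and 1.28. REC114 differed more between the times, at 4.65 after 6 h and 5.38 after 24 h, without passing the test. When arrays were normalized within each group instead, 1152 identifiers were called between 24 h and 6 h, 1134 of them lower, with the median of all identifiers at -0.09, and leaving out WI+CS24h-C replicate 4 gave 1 call.

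The same contrast in the corticomedullary junction allowed a test of whether cortex responded differently. Of 35934 identifiers none had a called interaction (0%), 669 had an unadjusted p under 0.05 and the lowest adjusted p was 1 by limma. Of the 433 identifiers called in cortex, 427 changed in the same direction in the CMJ and 331 by at least 0.5, while 67.0% of all identifiers had the same sign in both tissues. Cortex and CMJ of a group come from the same set of kidneys, so a difference between the sets of pigs would show in both. FUT2 went from 1.499 to 5.74 in the CMJ, HADHA from 11.20 to 10.05 and CPT2 from 8.55 to 7.43. Of the immediate early genes called in cortex, FOS went from 12.40 to 12.83 in the CMJ, EGR1 from 5.75 to 5.76, BTG2 from 10.21 to 10.86 and NR4A2 from 6.73 to 8.03, and the difference from cortex was not called for any of the 4. The labels do not say whether same-numbered cortex and CMJ arrays are of 1 kidney. Deviations from the group means of same-numbered cortex and CMJ arrays correlated with r from 0.145 to 0.481 in the WI+CS24h group, over 0.1 in all 5 pairs, and from 0.036 to 0.175 in the WI group, over 0.1 in 3 of 5. With the replicate number as a block no interaction was called by limma, and 751 had an unadjusted p under 0.05. With normalization within each group 79 interactions were called, in 74 of which the cortex difference lay below that of the CMJ.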

How the data were processed

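Pig kidney cortex and corticomedullary junction RNA was hybridized to 40 Agilent arrays, 1 color each, with 43803 spots that are not controls. The authors deposited 1 Agilent Feature Extraction 11.5.1.1 file per array, whose intensity values are background-subtracted and not normalized between arrays. They also deposited a matrix of log2 values, made per the submitters' notes with limma and R 2.15.2 and used here only as an alternative.

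The processed intensity was taken to log2, outlier spots (10 to 85 per array) were set missing, the 40 arrays were quantile normalized together, and spots sharing a systematic name were averaged, giving 35955 identifiers. Of these 8023 carry a symbol in the array files and 8937 by any source, 3067 of them being matched by identifier through a RefSeq gene list. Groups were taken from the sample titles, and same-numbered arrays of WI-C and WI+CS24h-C were not taken as pairs. The 20 cortex arrays, or all 40 for the tissue interaction, were modelled with a term for each group in limma 3.58.1 (lmFit, eBayes; statmod 1.5.0) under R 4.3.3, with jsonlite 2.0.0 and the data.table package (1.17.8). Identifiers that lacked values in a whole group did not enter the model. Genes with a Benjamini-Hochberg adjusted p under 0.05 and an absolute log2 difference of at least 0.5 were called. Figures were drawn with matplotlib 3.10.9 in Python 3.11.15.

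An identifier counted as well above background on an array if 1 of its probes did. Each group mean rests on 5 arrays, and the spread behind the SE and p is estimated over all arrays of the fit. The labels call the kidneys of a group independent.

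Named genes are FUT2, HADHA and CPT2, the 10 largest rises and 10 largest falls among called genes with a symbol whose groups do not overlap, and from each of 19 pathway and 10 marker lists the called members with the largest change, at most 4 a direction, or else the brightest to make 2. Other genes were named after their values were seen. The comparison and the lists were chosen with earlier results of these data known, so the shares of list members called are not independent of these data. Alternatives covered scaling, background correction (normexp, offset 50), the deposited matrix, a filter on dim genes, probes, blocks and covariates, and leaving out each array. No reference genome was used. A few items of the rule are not reported here.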

Additional observations from a re-analysis of the deposited data

Results flagged for a closer look

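In 9 of 156 groups of 5 arrays tested, for the named genes and the share of spots well above background, 1 array stood far from the other 4 by Dixon's ratio at the 95% level. Chance alone gives about 1 in 20 groups where these are independent, and these are not, since the genes share their arrays and 5 of the 9 were in 1 array.

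4 of these were WI-C arrays. CYP2C42 was at 2.30 in replicate 4 against 7.80 to 9.27 in the others. CXCL10 was at 9.66 in replicate 3 against 10.38 to 10.46, and ABCC2 was at 10.63 in the same replicate against 10.97 to 11.08. GSTA2 was at 8.71 in replicate 2 against 10.92 to 11.40.

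The other 5 were in replicate 5 of WI+CS24h-C. LYPD6 was at 6.64 there against 7.49 to 7.80, NR4A2 at 7.0 against 8.51 to 8.73, BCL6 at 8.70 against 9.36 to 9.60, CEBPA at 10.18 against 10.62 to 10.78, and ID2 at 11.06 against 11.70 to 11.79.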

How the results depend on the processing

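Among the 50 named genes that were called, no difference changed direction under any alternative. In the comparison of WI+CS24h-C with WI-C, 433 identifiers were called (229 higher, 204 lower). The count was 112 with normexp background correction (47 higher, 65 lower), 276 in the deposited matrix, 118 with slide as a block, 202 when the 10 arrays were fitted alone and 1014 with the share of spots well above background as a covariate (460 higher, 554 lower). It was 0 when only the 8 arrays of the 4 slides that held both groups were fitted and slide was added as a block, where 2507 had an unadjusted p under 0.05. Of the 50 genes, 28, 39, 18, 25, 50 and 0 kept their call under these settings. Normalization within each group gave 519 calls, 329 higher and 190 lower, and scaling by the 75th percentile gave 378. Leaving out 1 array gave 260 to 428 calls, with 260 without WI+CS24h-C replicate 1 and 266, 278 and 280 without WI-C replicates 3, 4 and 5, and 31 of the 50 genes kept their call in all 10 fits. Same-numbered arrays of WI-C and WI+CS24h-C deviated from their group means with r from -0.45 to -0.02, so the numbers did not pair them. The replicate block gave 457 calls. A random block for the kidney, with same-numbered 6 h and 24 h arrays taken as 1 kidney, gave 449. For 24 h against 6 h, the count of 0 became 1152 with normalization within each group (18 higher, 1134 lower) and ran from 0 to 1 when 1 array was left out, and the interaction count of 0 became 79 (5 higher, 74 lower). The replicate block gave 0 calls in both.

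5 genes that were not called and lay near 0 changed sign. AQP1 was at 0.0012 with normexp correction. RBMX was at -0.019 with the slide block, -0.016 on the slides holding both groups and -0.088 with the brightest probe. RBM5 was at -0.16 and PSMB4 at -0.0062 with the brightest probe. Leaving out 1 array gave ranges of -0.027 to 0.029 for RBMX, -0.044 to 0.0037 for AQP1, -0.038 to 0.074 for PSMB4 and -0.197 to 0.031 for AQP2. The causes were not tested. Leaving out 1 array, an alternative chosen after seeing the data, put the difference in the share of spots well above background between 0.934 and 1.99 percentage points. Of the called identifiers, 27 were not well above background on any WI-C array, 22 on any WI+CS24h-C array and 10 on any array of either group, and their size is limited by the signal over background.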
